A study of Mus musculus with 10 samples.

Results

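*Trp53*, which encodes the transcription factor p53, and 9 genes that p53 is known to activate (*Mdm2*, *Ccng1*, *Bax*, *Bbc3*, *Sesn2*, *Gdf15*, *Trp53inp1*, *Phlda3* and *Zmat3*) were followed through 10 RNA-seq libraries of serum-starved NIH3T3 cells that lacked or re-expressed Lin37. These 10 genes, of 45232 gene entries measured, were chosen by name from the known p53 network, with earlier results of these data known. *Cdkn1a* was left out of the set and is given only for comparison. NIH3T3 is an immortalized mouse fibroblast line. All cells came from 2 single-cell clones in which Cas9 nickase had placed InDels in *Lin37*, 1 clone at exon 4 and 1 at exon 6. Into both clones the authors had introduced an episomal plasmid with a doxycycline-inducible promoter, driving luciferase in the cells called KO and wild-type Lin37 in those called rescue. Whether doxycycline was given before RNA was taken is not stated in the labels. The paper reports that its comparisons used cell lines induced with doxycycline, but its passages on RNA-seq do not mention the drug. The control is therefore a mutated clone with Lin37 put back, not an unedited cell, and each mutation is represented by 1 clone. All cells were kept without serum for 60 h before RNA was taken. There were 2 biological replicates per genotype in the exon 4 clone, and 3 libraries per genotype in the exon 6 clone, where library 3 is labelled a technical replicate of library 2. These were averaged, which left 4 KO and 4 rescue replicates. Exon 4 KO, exon 6 rescue and so on stand for the cells of that clone and genotype.

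DREAM is a repressor complex that keeps cell cycle genes silent in quiescent cells by binding E2F sites and CHR elements near their start sites, and Lin37 is one of its subunits. p53 acts upstream of it: after DNA damage or other stress, p53 accumulates, activates *Cdkn1a*, and the encoded inhibitor p21 keeps the pocket proteins of DREAM unphosphorylated. p53 is controlled mainly at the level of the protein. MDM2 marks it for degradation and is itself a p53 target, and the other targets measured here act in growth arrest, apoptosis and the response to oxidative stress. The comparison asks whether loss of DREAM repression in starved cells comes with a change in transcripts of p53 or its targets.

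No p53 gene passed the test for a change with loss of Lin37. Of the 9 that reached a mean of 0.1 RPKM (*Gdf15* did not), 0 were called over both clones, against 1.69% of the 16866 genes tested, and 0 of the 9 had an unadjusted *p* under 0.05 in limma, against 8.79% of all genes. With backgrounds this low, a count of 0 of 9 does not set these genes apart from the rest, and the interval of each gene shows the sizes of change these data allow. With RPKM as deposited, before libraries were rescaled, all 9 were higher in KO, and in the exon 6 clone all 9 were called, as were most genes. After rescaling, their log2 changes ran from -0.29 for *Phlda3* to 0.18 for *Bbc3*, with a median of 0.04, and the median of all genes tested was -0.03. In the same cells, 10 of 11 tested genes of a list of DREAM-repressed cell cycle genes rose, with a median log2 change of 1.87. That list was chosen with results of these samples known, so its rise is not independent evidence. A call is an adjusted *p* under 0.05 (Benjamini-Hochberg over all genes tested) in limma on log2(RPKM + 0.5), with the clone as a covariate, and a change is KO minus rescue. Changes on this scale understate the fold of genes with low values.

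The promoter sequences of 8 of the 10 genes (all but *Trp53inp1* and *Zmat3*) were found in RefSeq tables for GRCm38.p6, as 11 windows from 250 bases before to 50 bases after a gene start. Windows were searched on both strands for CHR elements (TTTGAA or TTCGAA), E2F sites (TTTGGCGC, TTTCGCGC or TTCCCGCC) and the p53 response element, which is a pair of 10-base units with at most 1 base between them, here with at most 2 mismatches outside the fixed C and G of each unit. *Ccng1* and *Bax* held a match to the p53 response element, which was found in 0.682% of all 32851 windows. A CHR match was present for *Bax* and *Gdf15* (19.2% of all windows) and an E2F match for *Bbc3* (2.96% of all windows). The CHR match of *Bax* lies within its p53 match, so the same bases are read as both. Of the 3 genes of the wider lists that rose in KO, *Ckap2* held a p53 match and a CHR match at separate places. *Gtse1* held 2 p53 matches, which overlap each other and span its gene start or follow it, and no CHR or E2F match. *Chek2* held none of the 3 motifs. The matches are shown in capitals for the stretches upstream of *Ccng1* (chr11:40755422-40755521, minus strand), *Bax* (chr7:45467039-45467139, minus strand) and *Ckap2* (chr8:22185963-22186062 for the p53 match and chr8:22185875-22185960 for the CHR match, minus strand), to set side by side 2 genes that did not pass the test and 1 that did.
Ccng1, p53 match: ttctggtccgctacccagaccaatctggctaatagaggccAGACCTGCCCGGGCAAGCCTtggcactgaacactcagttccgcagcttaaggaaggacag
Bax, p53 match: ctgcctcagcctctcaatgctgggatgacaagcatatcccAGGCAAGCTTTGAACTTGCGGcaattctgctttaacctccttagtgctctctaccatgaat
Ckap2, p53 match: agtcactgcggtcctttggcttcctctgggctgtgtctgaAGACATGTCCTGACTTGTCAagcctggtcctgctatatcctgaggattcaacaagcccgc
Ckap2, CHR match: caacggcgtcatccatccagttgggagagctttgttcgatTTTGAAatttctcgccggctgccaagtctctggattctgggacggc
The p53 matches begin 195 bases (*Ccng1*), 201 bases (*Bax*) and 203 bases (*Ckap2*) before the gene start, and the CHR match of *Ckap2* begins 101 bases before it. A match describes letters in this window and shows no binding, and elements in introns or further upstream were not searched.

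*Lin37* (chromosome 7, 30555441 to 30559838, minus strand), the targeted gene, was measured first. After rescaling, it was at 0.285 and 0.284 RPKM in the KO replicates of the exon 4 clone and at 2.54 and 2.12 RPKM in its rescue replicates. Its values in the exon 6 clone were 0.417, 0.279 and 0.268 RPKM for KO and 4.92, 5.11 and 4.41 RPKM for rescue. KO was below rescue throughout, which is the direction the labels give, although reads of the rescue episome may count here. All 9 fibroblast markers had a mean above 1 RPKM, and their summed level was 506 to 785 RPKM in KO and 553 to 856 RPKM in rescue replicates. The leukocyte, endothelial and epithelial markers were all under 1 RPKM on average. The deposited values carry no counts, and low values gave only relative depths, which in all 5 library pairs were 1.28 to 2.08 times higher in rescue than in KO. The share of summed RPKM in protein-coding genes was 19.8% to 67.4% in KO and 52.2% to 78.5% in rescue libraries and was lower in KO in every pair. Its part in the results below was not tested.

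*Trp53* lies on chromosome 11 (69580359 to 69591873, plus strand, GRCm38). Its transcript was at 3.95 and 3.66 RPKM in the KO and at 3.43 and 2.91 RPKM in the rescue replicates of the exon 4 clone. The exon 6 clone gave 3.46, 2.68 and 4.27 RPKM in KO and 3.93, 3.23 and 4.64 RPKM in rescue. KO was the higher in both exon 4 pairs and the lower in both exon 6 pairs. The 4 KO replicates averaged 3.64 ± 0.23 RPKM and the 4 rescue replicates 3.55 ± 0.49 RPKM (SD), a log2 change of 0.04 with a 95% interval of -0.21 to 0.29 (limma, adjusted *p* = 0.953). The interval reaches from 0.863 to 1.22 times on the RPKM + 0.5 scale. The 2 technical replicates of exon 6 KO differed by 0.58 and those of exon 6 rescue by 0.46 on the log2 scale, more than any KO difference of this gene.

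*Mdm2*, the ubiquitin ligase that limits p53 and one of its most direct readouts, lies on chromosome 10 (117688875 to 117710758, minus strand). It was at 4.34 and 4.03 RPKM in exon 4 KO and at 5.11 and 4.72 RPKM in exon 4 rescue. Exon 6 KO libraries were at 3.79, 3.92 and 4.40 RPKM and exon 6 rescue libraries at 3.28, 3.95 and 3.86 RPKM. The direction was opposite to that of *Trp53* in both clones, lower in KO in the exon 4 pairs and higher in the exon 6 pairs once technical replicates were averaged. Over both clones the means were 4.08 ± 0.23 RPKM in KO and 4.25 ± 0.82 RPKM in rescue (SD, n = 4 each). The log2 change was -0.04, with a 95% interval of -0.29 to 0.21 (limma, adjusted *p* = 0.948), which reaches from 0.820 to 1.16 times.

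*Ccng1* (chromosome 11, 40748552 to 40755311, minus strand) encodes cyclin G1, which takes part in the feedback between p53 and MDM2, and had the highest mean level of the set. It was at 14.1 and 20.9 RPKM in exon 4 KO and at 15.0 and 25.1 RPKM in exon 4 rescue. In the exon 6 clone the KO libraries were at 16.0, 18.2 and 15.6 RPKM and the rescue libraries at 13.5, 17.4 and 15.1 RPKM. The 2 replicates of exon 4 rescue were further apart than KO was from rescue in any pair. The log2 change over both clones was -0.01 (95% interval -0.45 to 0.43, limma, adjusted *p* = 0.993).

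*Bax* and *Bbc3* encode proapoptotic proteins of the BCL2 family, the pore former BAX and the BH3-only protein PUMA. *Bax* (chromosome 7, 45461697 to 45466898, minus strand) was at 12.6 and 17.8 RPKM in exon 4 KO and at 10.4 and 16.7 RPKM in exon 4 rescue. Its values in the exon 6 clone were 13.2, 17.6 and 19.1 RPKM for KO and 11.6, 18.7 and 15.5 RPKM for rescue. *Bax* was the only 1 of the 9 genes that was higher in KO in all 4 pairs (technical replicates averaged), by 0.09 to 0.26 on the log2 scale, which did not pass the test (log2 change 0.16, 95% interval -0.31 to 0.62, limma, adjusted *p* = 0.880). The 2 replicates of each genotype and clone lay further apart than KO and rescue did in any pair. A predicted gene on the same strand, *Gm45808*, shares 12.18% of the exon bases of *Bax*, so some reads could belong to it. *Bbc3* (chromosome 7, 16308393 to 16318205, plus strand) was at 4.03 and 2.33 RPKM in exon 4 KO and at 2.25 and 2.78 RPKM in exon 4 rescue, so its highest value was that of 1 KO replicate. The exon 6 clone gave 2.06, 2.00 and 2.99 RPKM in KO and 2.16, 1.56 and 2.41 RPKM in rescue. KO was higher in 2 of 4 pairs, and the log2 change was 0.18 (95% interval -0.17 to 0.53, limma, adjusted *p* = 0.794).

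*Sesn2* and *Trp53inp1* encode stress-response proteins, the mTORC1 inhibitor sestrin 2 and a p53-induced nuclear protein that also acts in autophagy. *Sesn2* (chromosome 4, 132492032 to 132510501, minus strand) was at 3.54 and 2.25 RPKM in exon 4 KO and at 2.80 and 3.43 RPKM in exon 4 rescue. Exon 6 KO libraries were at 2.19, 2.37 and 2.86 RPKM and exon 6 rescue libraries at 2.13, 1.98 and 2.29 RPKM. The exon 4 pairs moved in opposite directions, and the log2 change was 0.01 (95% interval -0.31 to 0.34, limma, adjusted *p* = 0.989). *Trp53inp1* (chromosome 4, 11156431 to 11174379, plus strand) was at 5.11 and 5.45 RPKM in exon 4 KO and at 3.18 and 6.82 RPKM in exon 4 rescue, where the 2 rescue replicates enclosed both KO replicates. Its values in the exon 6 clone were 2.93, 2.90 and 2.48 RPKM for KO and 2.13, 3.18 and 2.60 RPKM for rescue. Its log2 change was 0.15 (95% interval -0.30 to 0.60, limma, adjusted *p* = 0.881).

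*Phlda3* and *Zmat3* encode a pleckstrin-homology protein that inhibits AKT and a zinc finger RNA-binding protein. *Phlda3* (chromosome 1, 135766119 to 135769136, plus strand) was at 14.5 and 11.8 RPKM in exon 4 KO and at 13.4 and 23.7 RPKM in exon 4 rescue. The exon 6 clone gave 14.3, 13.6 and 18.5 RPKM in KO and 15.4, 16.1 and 20.2 RPKM in rescue. It was lower in KO in 3 of 4 pairs, with the largest gap in the second exon 4 pair, and its log2 change was -0.29 (95% interval -0.70 to 0.13, limma, adjusted *p* = 0.733). *Zmat3* (chromosome 3, 32334792 to 32366014, minus strand) was at 5.30 and 5.18 RPKM in exon 4 KO and at 3.80 and 5.26 RPKM in exon 4 rescue. Exon 6 KO libraries were at 4.38, 3.79 and 3.87 RPKM and exon 6 rescue libraries at 4.29, 3.61 and 3.67 RPKM. KO and rescue differed most in the first exon 4 pair, and the log2 change was 0.13 (95% interval -0.15 to 0.40, limma, adjusted *p* = 0.817).

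*Gdf15* (chromosome 8, 70629393 to 70632456, minus strand), a secreted stress cytokine, was close to undetected. It was at 0.0659 and 0.0397 RPKM in exon 4 KO, was listed at 0 in 1 exon 4 rescue library and was at 0.0321 RPKM in the other. In the exon 6 clone it was at 0.0096 RPKM in 1 KO library and listed at 0 in the other 2, and it was at 0.00901 to 0.0383 RPKM in the 3 rescue libraries. These values are below the minimum for testing, and no fold is given.

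**Figure D1:**
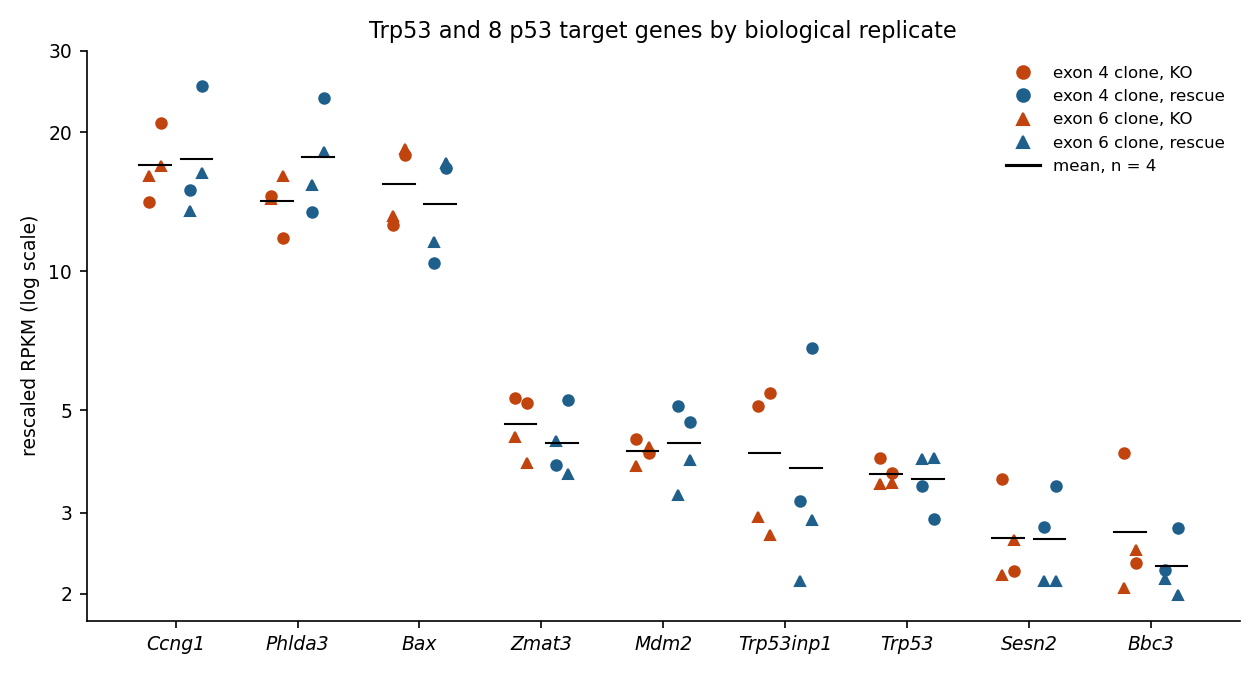
Rescaled RPKM (log axis) of *Trp53* and 8 p53 target genes, ordered by mean level, in 4 KO (red) and 4 rescue (blue) replicates. Circles are the exon 4 clone, triangles the exon 6 clone (technical replicates averaged) and black lines the means over 4 replicates. KO and rescue overlap for every gene.

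RPKM is scaled by gene length, so that levels can be set beside each other. Over all 8 replicates the order was *Ccng1* (17.2 ± 3.9 RPKM, SD, n = 8), *Phlda3* (15.9 ± 3.7), *Bax* (14.7 ± 3.1), *Zmat3* (4.46 ± 0.70), *Mdm2* (4.17 ± 0.57), *Trp53inp1* (3.90 ± 1.67), *Trp53* (3.59 ± 0.36), *Sesn2* (2.64 ± 0.58), *Bbc3* (2.51 ± 0.66) and *Gdf15* (0.0240 ± 0.0233). The lowest replicate of the first 3 genes (10.4 RPKM) was above the highest replicate of all others (6.82 RPKM), and *Gdf15* was below every replicate of the rest. Within these groups each gene overlapped its neighbours in the order. The KO replicates overlapped the rescue replicates for all 9 tested genes, whereas 4.51% of all genes tested had no overlap. *Cdkn1a*, the p53 target that encodes p21, was at 26.8 ± 7.9 RPKM in KO and 24.7 ± 9.3 RPKM in rescue (SD, n = 4 each), with a log2 change of 0.14 (limma, adjusted *p* = 0.849).

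The spread between replicates sets what could have been seen. The 95% intervals of the 9 genes reached no lower than 0.615 times (*Phlda3*) and no higher than 1.54 times (*Bax*) on the RPKM + 0.5 scale. The standard errors of their log2 changes ran from 0.11 to 0.20. Between the technical replicates, the median absolute log2 difference of these genes was 0.21 for exon 6 KO cells and 0.25 for exon 6 rescue cells. In *Trp53*, *Bbc3* and *Phlda3*, library 3 was above library 2 by 0.32 to 0.58 in both genotypes. Between biological replicates the medians were 0.16 and 0.22 in exon 6 KO and rescue, and 0.29 and 0.42 in exon 4 KO and rescue. Replicate 2 of the exon 6 clone is a mean of 2 libraries, which lowers its spread. The exon 6 biological medians are therefore not on equal terms with the technical or exon 4 ones. Exon 4 rescue was above exon 4 KO for these genes, but not over genes above 1 RPKM (0.23 and 0.24).

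Each clone was then taken alone. In the exon 6 clone 0 of 9 genes were called, against 1.30% of 15301 genes tested. An unadjusted *p* under 0.05 in limma was reached by 0 of the 9 and by 1811 of all genes. The median log2 change of the 9 was 0.13, beside 0.00 for all genes. Of the 9, 7 were positive, beside 7663 of all genes, and *Trp53* was the lowest at -0.16 (95% interval -0.41 to 0.09). In the exon 4 clone 0 of 9 were called and 0 had an unadjusted *p* under 0.05 in limma. There the background was 0% of 18751 genes, with 768 at an unadjusted *p* under 0.05, so the exon 4 comparison called nothing at all, *Lin37* included (log2 change -1.84, adjusted *p* = 0.167). The exon 4 changes of the p53 genes ran from -0.43 for *Phlda3* to 0.25 for *Bbc3*, with a median of 0.15 beside -0.08 for all genes.

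Whether the clones responded differently was asked with a clone-by-genotype interaction term, which called 0 of 9 p53 genes and 0% of 16866 genes. In limma, 0 of the 9 and 685 of all genes had an unadjusted *p* under 0.05. *Trp53* came nearest, with a change that was 0.39 lower in the exon 6 than in the exon 4 clone on the log2 scale (95% interval -0.81 to 0.03, limma, adjusted *p* = 0.997). For *Mdm2* the change was 0.34 higher in the exon 6 clone (95% interval -0.11 to 0.79, limma, adjusted *p* = 0.997). Fitting the replicate number as a block, since KO and rescue share numbers, gave 0 called genes of 9 over both clones, within each clone and in the interaction.

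**Figure D2:**
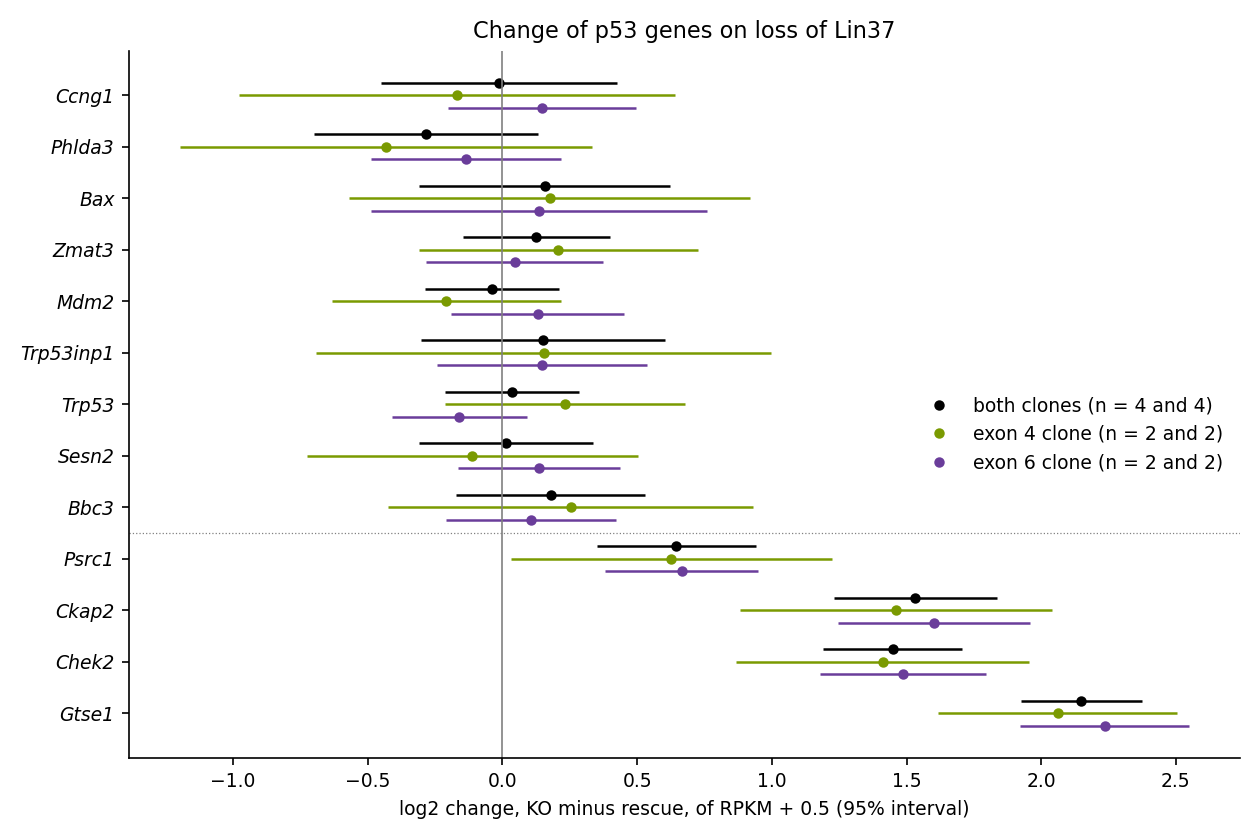
log2 change (KO minus rescue, of RPKM + 0.5) with 95% interval for 9 p53 genes, above the dotted line, and 4 genes of the wider p53 lists below it. Black is both clones (4 KO and 4 rescue replicates), green the exon 4 clone and purple the exon 6 clone (2 and 2 each). All 27 intervals above the line include 0, and none of those below it do.

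The wider network was read from lists of known genes. Of 19 regulators of p53, 16 were tested, 1 rose and 0 fell, with a median log2 change of -0.04, where 1.61% of all genes tested rose. The gene that rose was *Chek2*, which encodes a checkpoint kinase that phosphorylates p53 after DNA damage. It was at 1.61 and 1.34 RPKM in exon 4 KO, 0.343 and 0.152 RPKM in exon 4 rescue, 1.32, 1.86 and 1.33 RPKM in exon 6 KO and 0.182, 0.167 and 0.251 RPKM in exon 6 rescue. The groups did not overlap, the means differed 6.62 times, and the log2 change was 1.45 (95% interval 1.19 to 1.71, limma, adjusted *p* = 0.000349). Of the 16, 2 had an unadjusted *p* under 0.05 in limma, both higher in KO, where 5.06% of all genes tested were higher at that *p*. Among regulators with a mean above 1 RPKM, which leaves out *Chek2*, the 2 largest changes were those of the phosphatase gene *Ppm1d* (-0.14) and the ubiquitin ligase gene *Rchy1* (-0.18). Neither passed, and regulators below that mean were not ranked. *Cdkn2a*, which encodes the MDM2 inhibitor ARF and is known to be deleted in NIH3T3, was listed at or near 0 in all replicates (at most 0.00148 RPKM).

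Of 51 other p53 targets, 44 were tested, 2 rose and 0 fell, 4.55% in all against 1.69% of all genes tested, with a median log2 change of 0.03. *Gtse1* encodes a microtubule-associated protein of S and G2 phase that also restrains p53. It was at 6.85 and 6.43 RPKM in exon 4 KO, 1.10 and 1.33 RPKM in exon 4 rescue, 4.69, 4.48 and 5.59 RPKM in exon 6 KO and 0.554, 0.578 and 0.878 RPKM in exon 6 rescue, a log2 change of 2.15 (95% interval 1.92 to 2.37, limma, adjusted *p* = 6.97e-05). *Ckap2*, whose protein binds spindle microtubules, was at 2.26 ± 0.58 RPKM in KO and 0.460 ± 0.233 RPKM in rescue (SD, n = 4 each), a log2 change of 1.53 (95% interval 1.23 to 1.83, limma, adjusted *p* = 0.000601). Both are genes of cell division as well as p53 targets, and both were higher in KO in 4 of 4 pairs. In bulk RNA, more transcript per cell and more cells with the transcript cannot be told apart. *Psrc1*, another spindle gene, was at 5.31 ± 0.91 RPKM in KO and 3.18 ± 0.24 RPKM in rescue and missed the threshold (log2 change 0.65, limma, adjusted *p* = 0.0507). With the replicate number as a block it was called (limma, adjusted *p* = 0.0188), which makes 3 of 44.

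Apart from *Gtse1* and *Ckap2*, no other target was called in the fit without the block. Among the arrest genes, *Btg2*, an antiproliferative cofactor, followed *Gtse1* with a log2 change of 0.50 (95% interval 0.10 to 0.91, limma, adjusted *p* = 0.391). In the apoptosis class, 0 of 11 tested genes were called, and the largest changes above 1 RPKM were 0.21 (*Eda2r*, a death-domain receptor) and 0.18 (*Trp53inp2*, an autophagy gene). In the metabolism and autophagy class, 0 of 12 were called, and 3 had an unadjusted *p* under 0.05 in limma, all lower in KO. Such a *p* was found in either direction in 8.79% of all genes tested. Among the 44 other targets 7 had it, 4 of them higher in KO. *Gpx1*, a glutathione peroxidase, had a log2 change of -0.42 and *Dram1*, a lysosomal autophagy protein, of -0.32, both lower in KO in 4 of 4 pairs (limma, adjusted *p* = 0.475 and 0.303). In the DNA repair class 0 of 7 were called, with *Ercc5*, a nuclease gene of nucleotide excision repair, at 0.09.

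Of 12 other genes of the BCL2 family, which set the threshold for apoptosis, 10 were tested and 0 called, with log2 changes from -0.24 to 0.11. The integrated stress response, which can also activate *Sesn2* and *Bbc3*, was followed by 12 genes of the ATF4 pathway. Of 10 tested, 0 were called, 6 had an unadjusted *p* under 0.05 in limma, all higher in KO, and the median log2 change was 0.28. Of all genes tested, 5.06% were higher at that unadjusted *p*. The interaction of clone and genotype called 0 of the 10, and 1 had an unadjusted *p* under 0.05 in limma, as did 685 of 16866 genes. In the exon 4 clone alone all 10 were positive, with 0 at that *p*. In the exon 6 clone alone 7 of 10 were positive, with changes from -0.47 to 0.87. There 3 genes were at that *p*, of which 2 were higher in KO. The serine synthesis gene *Psat1* (0.67, limma, adjusted *p* = 0.0874) and the pseudokinase gene *Trib3* (0.48, limma, adjusted *p* = 0.334) had the largest changes above 1 RPKM, and neither passed. The DREAM-repressed list, by contrast, had *Bub1b* at 2.53 ± 0.43 RPKM in KO and 0.185 ± 0.070 RPKM in rescue, and *Cdc20* at 3.41 ± 0.40 RPKM and 0.400 ± 0.205 RPKM (SD, n = 4 each). Both are regulators of anaphase onset. The others called were *Bub1*, *Ttk*, *Nek2*, *Mcm5*, *Cdc45*, *Foxm1*, *Kif18b* and *Ccnb2*, of which *Ccnb2*, cyclin B2, had the smallest log2 change (0.77), and *Orc1* missed the threshold (limma, adjusted *p* = 0.0674) but passed it with the replicate block (limma, adjusted *p* = 0.0467). The list was chosen with results of these samples known and is not independent evidence of its direction.

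**Figure D3:**
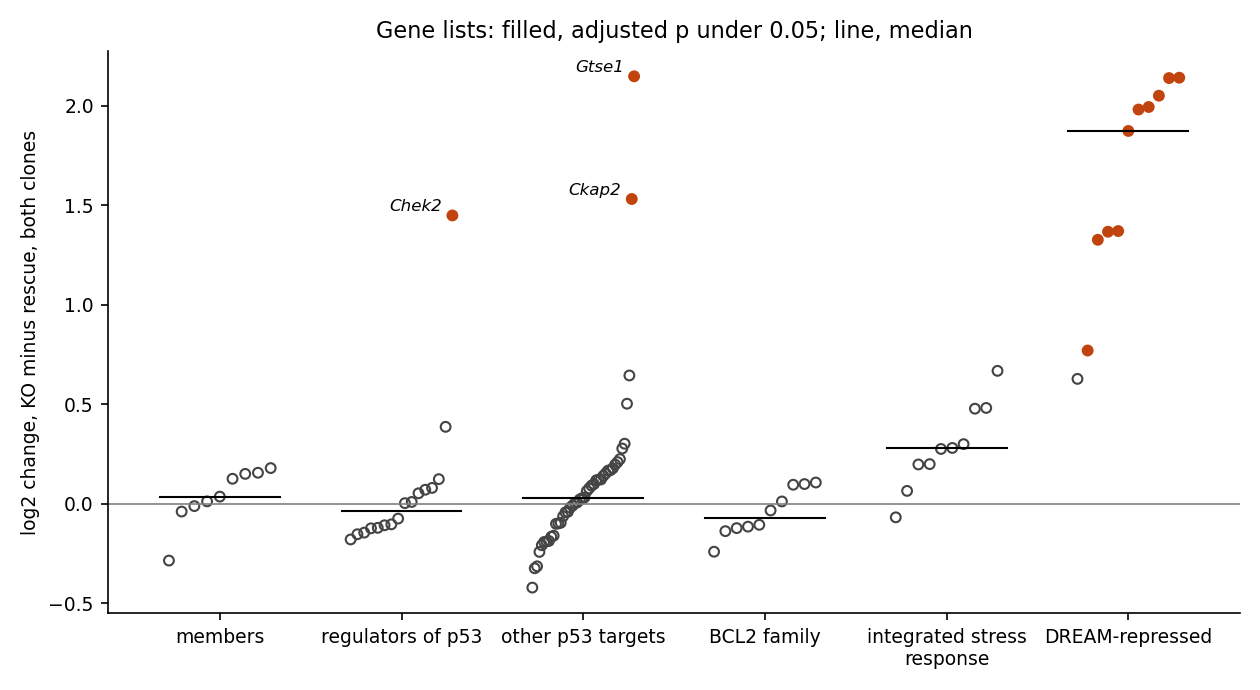
log2 change (KO minus rescue, both clones, 4 and 4 replicates) of each tested gene of 6 lists. Filled points have an adjusted *p* under 0.05, open points do not, and the line is the list's median. Calls are 0 of 9 p53 genes, 1 of 16 regulators, 2 of 44 other p53 targets and 10 of 11 DREAM-repressed genes.

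The direction of the p53 genes depends on how libraries are brought to 1 scale. The scaling factors were median ratios over 8523 genes, and these factors, from 0.324 to 2.70, were 1.56 to 2.77 times larger in KO than in the paired rescue library. With the RPKM as deposited, all 9 p53 genes were higher in KO over both clones, by log2 changes of 0.71 to 1.17, with 0 called (limma, adjusted *p* from 0.0878 to 0.217). In the exon 6 clone all 9 were called as higher, by 0.74 to 1.17. On that scale 61.4% of 16361 genes were called as higher in this clone, and the median change of genes above 1 RPKM was 0.85 there and 0.83 over both clones. The median of the p53 genes was 1.01 and 0.98, that is, 0.16 and 0.15 above those medians, and in the exon 4 clone it was 1.08 against 0.81, or 0.27 above. Quantile normalization called 0 of 9, with changes from -0.26 to 0.17. *Chek2*, *Gtse1* and *Ckap2* were called as higher under each alternative in which they were tested, with log2 changes of 1.01 to 2.31, 1.81 to 2.96 and 1.16 to 2.21. None of these scales can show a change shared by most transcripts, which would need an outside reference.

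**Figure D4:**
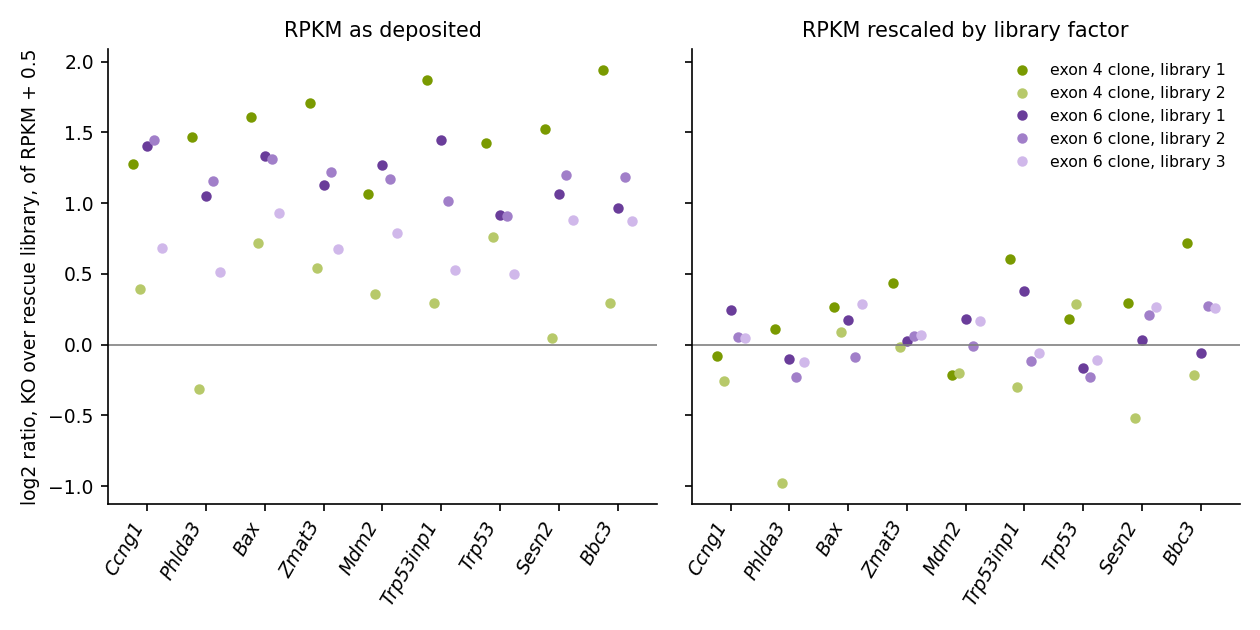
log2 ratio of each KO library to the rescue library of the same clone and number, of RPKM + 0.5, for 9 p53 genes with RPKM as deposited (left) and after division by library factors (right). Points are the 5 library pairs, coloured by clone and number. As deposited, 44 of 45 ratios are above 0, and after rescaling they lie on both sides of it.

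Between the clones, over both genotypes, 1 of 9 p53 genes was called against 13.6% of 16866 genes, which does not set these genes apart. *Trp53inp1* was lower in the exon 6 clone (2.66 ± 0.37 RPKM) than in the exon 4 clone (5.14 ± 1.50 RPKM, SD, n = 4 each), a log2 difference of -0.80 (95% interval -1.25 to -0.35, limma, adjusted *p* = 0.0328). This call was lost when any 1 of the 4 exon 6 replicates or replicate 2 of exon 4 KO was left out (limma, adjusted *p* from 0.0597 to 0.0970), while the difference stayed between -0.73 and -0.88. Without replicate 2 of exon 4 KO, *Sesn2* was called in its place, lower in the exon 6 clone by a log2 difference of -0.46 (limma, adjusted *p* = 0.0397). *Cdkn1a* was lower in the exon 6 clone as well (19.3 ± 1.8 against 32.2 ± 6.2 RPKM, log2 difference -0.71, limma, adjusted *p* = 0.0190). Of the 44 other targets tested, *Cdkn1a* included, 8 were lower and 2 higher in the exon 6 clone, or 22.7%. Of all 16866 genes tested, 1132 were lower and 1154 higher. Clone, target site and culture cannot be told apart here, since each mutation is 1 clone.

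The genes whose levels followed those of *Trp53* most closely over the 8 replicates were *Abcd4*, *Map2k3* and *Ppib*, with Pearson's r of 0.96, 0.95 and 0.95 on the log2 scale. For *Mdm2* they were *Eif3j2*, *Idh1* and *Zfyve21*, with r of 0.99, 0.98 and 0.95. These are the highest of 7549 genes above 1 RPKM, and the points share clones and library preparations. Within the set, r between genes ran from -0.74 for *Trp53* and *Ccng1* to 0.85 for *Bbc3* and *Sesn2*, and it was -0.57 for *Trp53* and *Mdm2*.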

How the data were processed

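RNA depleted of ribosomal RNA was sequenced from 10 libraries. According to their methods, the authors removed adapters (cutadapt 1.8.3), aligned reads to mm10 (segemehl 0-2-0, split reads allowed) and summarized them by gene (rnacounter 1-5-2, GENCODE vM5). They deposited RPKM per library. The library total behind the RPKM and the use of strand are not given in the sources used here. All columns were matched to samples by label. Gene positions came from GENCODE M21, in which 44585 of 45232 identifiers were found.

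Values were rescaled with a median-of-ratios factor per library, computed from 8523 genes whose mean was 1 RPKM or more and which were above 0 throughout. After technical replicates were averaged, genes averaging 0.1 RPKM or more were tested on log2(RPKM + 0.5) with limma 3.58.1 in R 4.3.3 (lmFit, eBayes with trend), with Benjamini-Hochberg adjustment over all genes tested. The fit was run on simulated data with independent noise of the same size for every gene, which lacks the correlation between replicates given next. No result here rests on that run. KO and rescue replicates share numbers in the labels, and deviations of same-numbered replicates correlated over genes with r = 0.432 in the exon 4 and 0.217 in the exon 6 clone, so a block for clone and number was fitted as an alternative. Other alternatives were pseudocounts of 0.1 and 1, no minimum level or 1 RPKM, RPKM as deposited, quantile normalization, technical replicates kept apart, no trend, no clone covariate and leaving out each replicate.

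The p53 genes and all lists were chosen with earlier results of these data known. All p53 genes were named, and of the other lists the genes called over both clones and the 2 with the largest change above 1 RPKM. *Psrc1*, *Orc1*, *Cdkn1a*, *Cdkn2a* and *Sesn2* between clones were named outside this rule where a result turned on them. The value of 1 gene that this rule names is not reported here.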

Additional observations from a re-analysis of the deposited data

Results flagged for a closer look

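In 3 genes, both pairs of the exon 4 clone moved in the opposite direction to both pairs of the exon 6 clone. For *Trp53* the exon 6 change minus the exon 4 change was -0.39 on the log2 scale, for *Mdm2* it was 0.34 and for *Ccng1* 0.32 (interaction of clone and genotype in limma, adjusted *p* = 0.997 for each). The interaction did not pass the test for any of the 9 genes tested. With 2 pairs in each clone such a pattern needs only 4 signs to line up. No replicate stood apart from the other 3 of its genotype by Dixon's criterion in 20 groups examined, where about 1 group in 20 would be expected by chance.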

How the results depend on the processing

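The count of 0 called p53 genes over both clones held under all 20 alternatives, as did 0 in the exon 4 clone (13 alternatives) and 0 in the interaction (19). In the exon 6 clone 9 were called with RPKM as deposited and 0 under the other 14. With no minimum level the exon 6 interval of *Trp53* excluded 0 (-0.30 to -0.016, limma, unadjusted *p* = 0.038, adjusted *p* = 0.612). Its interaction interval did so too (-0.73 to -0.054, limma, unadjusted *p* = 0.030, adjusted *p* = 0.954). The replicate block called 0 of 9 over both clones, within each clone and in the interaction, and changed no call among the 9 p53 genes. On the wider list it called 3 rather than 2, with *Psrc1* added, as did a pseudocount of 0.1, quantile normalization, technical replicates kept apart and leaving out replicate 2 of exon 4 KO, and with only the first library of each technical pair *Btg2* was the third. Over all genes the block gave 27 rather than 14 lower calls. With RPKM as deposited the median change of the p53 genes over both clones was 0.98 rather than 0.04, the wider list had 4 rather than 2 calls, and 875 genes were called higher over both clones, against 271. The other counts over all genes were 171 higher and 6 lower with no minimum level, 93 higher with a minimum of 1 RPKM, 6 lower without the clone covariate, and 6 lower with only the second library of each technical pair, an alternative chosen after seeing the data. Leaving out 1 replicate gave 174 to 265 higher and 4 to 16 lower calls. Higher calls fell to 180 and 174 without replicates 1 and 2 of exon 6 KO, where lower calls were 5 and 4, and lower calls were 8 without replicate 1 of exon 4 KO and 7 without either exon 6 rescue replicate.

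Between clones, the 1 call became 0 with no minimum level, with RPKM as deposited and with only the first library of each technical pair, and 0 to 1 when 1 replicate was left out; as deposited the difference of *Trp53inp1* was 0.015, a reversed sign. Small changes over both clones also reversed. With RPKM as deposited *Mdm2* was at 0.89, *Ccng1* at 0.98 and *Phlda3* at 0.71. With technical replicates kept apart *Trp53* was at -0.0067 and *Ccng1* at 0.00086, and with quantile normalization *Sesn2* was at -0.0022. Leaving out 1 replicate gave -0.044 to 0.077 for *Trp53*, -0.12 to 0.016 for *Mdm2*, -0.13 to 0.17 for *Ccng1*, -0.074 to 0.15 for *Sesn2* and -0.049 to 0.35 for *Trp53inp1*. The cause was not tested. The 95% intervals of the 9 genes over both clones reach from -0.70 to 0.62 on the log2 scale and in the exon 4 clone from -1.20 to 1.00, and changes of such sizes are not excluded.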
